A study of Schizosaccharomyces pombe with 6 samples.

Results

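The genes described are the autophagy-related (atg) genes of the fission yeast Schizosaccharomyces pombe. They were taken as every protein-coding gene whose deposited name is atg followed by digits, plus ctl1, which gave 28 of the 6291 genes counted. The rule uses names and no expression value, but it was set with earlier results of these data known. Of the 28 genes, 16 lie on chromosome I, 9 on chromosome II and 3 on chromosome III.

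Autophagy delivers cytoplasm, organelles and selected proteins to the vacuole inside a double-membraned vesicle, the autophagosome. The Atg1 kinase complex starts the process, Atg9 vesicles and Atg2 supply membrane, a phosphatidylinositol 3-kinase complex marks it, and conjugation systems attach Atg8 to lipid so that the membrane closes and captures cargo. In fission yeast the pathway is induced by nitrogen starvation, restrained by the kinase complex TORC1, and recycles amino acids that starved cells need.

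RNA sequencing was done on 6 cultures of a single strain, nup211-so, in which the thiamine-repressible promoter P81nmt1 with the marker ura4+ was placed before nup211, the gene of an essential basket nucleoporin. Both groups carried the alleles nup211::P81nmt1 ura4+, leu1-32, ura4-D18 and ade6-M210, with mating type h+, and were grown in Edinburgh minimal medium with adenine and leucine. The 3 control cultures received no thiamine, and the 3 cultures labelled thiamine received 10 µg/ml (30 µM), with growth for 24 hours, a wash and a further 24 hours in fresh medium before harvest. The comparison asks how the transcriptome differs when nup211 is to be shut off. No strain with the native nup211 promoter was analysed here, so an effect of thiamine itself and an effect of nup211 cannot be told apart, and the labels give no harvest density for either group.

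The labels were checked first on genes that should report them. The counts of nmt1, a thiamine-repressed gene, were 1631, 2061 and 1858 in the controls, and only 0, 3 and 2 with the label. Other counted genes overlap 100% of nmt1. The gene thi2, which no counted gene overlaps, had 351112, 360067 and 328976 counts against 2590, 2517 and 2534. The transcript of nup211 itself was not lower by the main scaling, with 477, 590 and 473 counts against 644, 551 and 655, and a log2 fold change of -0.17 (SE 0.11, edgeR adjusted p = 0.199). It was lower with upper-quartile factors (log2 fold change -0.47, edgeR adjusted p = 0.00686) and when trends with transcript length and GC content were removed (-0.62, edgeR adjusted p = 0.00121), and not called with library totals (0.40, edgeR adjusted p = 0.0851). Other counted genes overlap 87.0% of it. The marker ura4 fell by 1.75 on the log2 scale (SE 0.10, edgeR adjusted p = 1.62e-06). The groups are therefore named by their labels throughout.

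Total counts ran from 37195197 to 48815139 per library, and ribosomal RNA took 24.6% to 49.0% of them. The lowest share was in the library labelled thiamine replicate 3. It was the highest of its group for 21 of the 26 genes tested, and control replicate 1 was the highest of its own for 19. Levels below are counts per 1000000 (CPM) after trimmed-mean (TMM) scaling, as mean ± SD over 3 libraries, unless given per library in the order of the replicate numbers. The edgeR adjusted p is that of its quasi-likelihood F test, adjusted by the Benjamini-Hochberg method over all 5434 genes tested, a gene being called at a value under 0.05, and positive log2 fold changes mean higher in the libraries labelled thiamine.

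Most autophagy genes had more mRNA in the libraries labelled thiamine. Of the 26 tested, 17 rose, 4 fell and 5 did not pass the test, while atg12 and atg101 had too few counts to be tested. Among all genes tested 34.5% rose and 35.3% fell, against 65.4% and 15.4% of the autophagy genes. A rise of at least 2-fold was seen for 11 of them, where 16.4% of all genes tested had one, and atg1803 alone fell that far, where 13.6% of all genes tested did. Their median log2 fold change was 0.86, against -0.01 over all genes tested. Genes of the Atg1 complex, of the phosphatidylinositol 3-kinase complex and of the vacuole step rose in every tested case, whereas the membrane supply and conjugation groups were mixed.

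**Figure D1:**
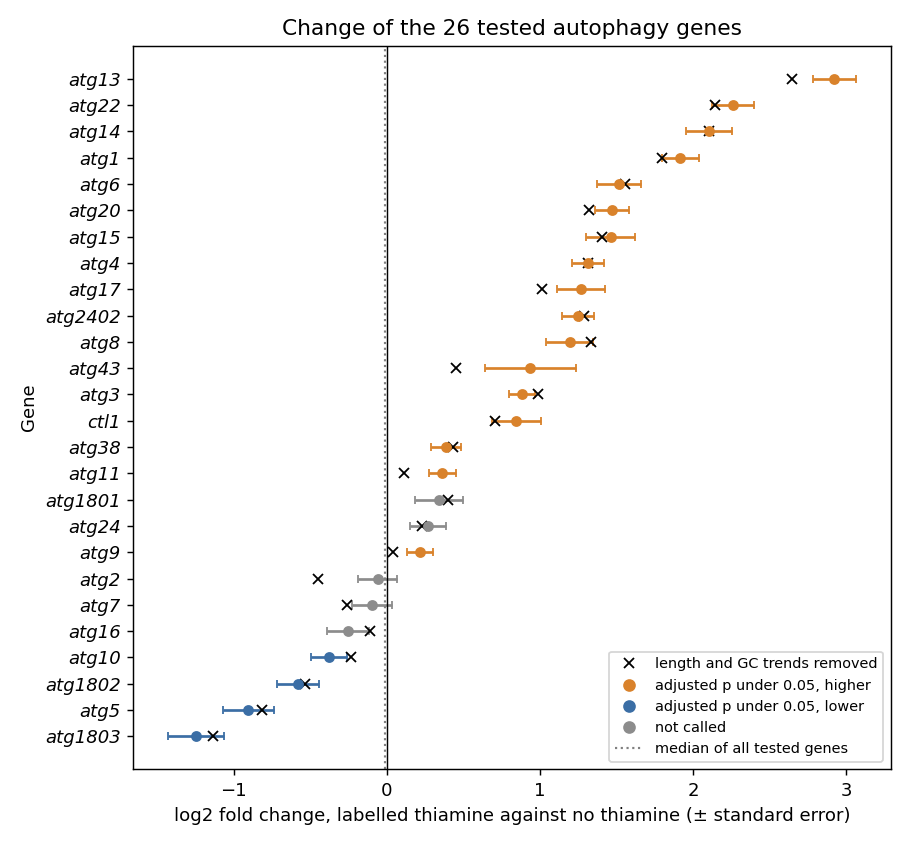
The log2 fold change of each tested autophagy gene (x axis, labelled thiamine against no thiamine, n = 3 libraries each, bars are standard errors), ordered by size, with crosses for the value after removal of length and GC trends and a dotted line for the median of all tested genes. The values ran from 2.92 for atg13 to -1.25 for atg1803, with 17 genes called higher and 4 lower. With library totals as the scaling atg10, atg2, atg16 and atg7 turned above 0, and with upper-quartile factors atg9 and atg24 turned below it.

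The groups of 3 libraries did not overlap in CPM for 22 of the 26 genes, where 75.5% of all genes tested had no overlap. At the strict threshold, an unadjusted p under 1e-06 and a change of 2-fold or more, 6 autophagy genes rose, against 6.7% of all genes tested. None fell by edgeR at that threshold, against 3.07% of all genes tested, and 4 fell at an unadjusted p under 0.05, against 36.7% of all. A total of 13 of the 17 rises were called in each of the 15 alternative analyses. The other 4, atg43, atg38, atg11 and atg9, were lost in at least 1. Among the falls, that of atg1803 alone was called in each.

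The scaling mattered because it moved all genes together. With library totals in place of TMM the median over all genes tested was 0.57, and 20 autophagy genes were called higher and 1 lower. With upper-quartile factors the median over all genes was -0.31, and 13 were higher and 7 lower. The autophagy median stood above the median of all genes by 0.88 with TMM, 0.89 with totals and 0.87 with upper-quartile factors. Each of these scalings applies a single factor per library, so near-equal gaps are built in and add no support. The gap was 0.62 once length and GC trends were removed.

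The genes that rose together included atg13 and atg14, whose upstream sequences are shown because they are among the steepest rises and no other annotated gene lies in the window, and atg3, which holds a motif. Each is the 250 bases before the outermost transcript start in the deposited table or in RefSeq, read 5' to 3' on the strand of the gene from the RefSeq assembly ASM294v3. The atg13 window is chromosome I, 4843724 to 4843973, minus strand. The atg14 window is chromosome I, 2101940 to 2102189, plus strand, and the atg3 window is chromosome II, 3999895 to 4000144, minus strand. Capitals mark TGACGT or its reverse complement ACGTCA, the core letters of sites bound by the stress factor Atf1.
atg13: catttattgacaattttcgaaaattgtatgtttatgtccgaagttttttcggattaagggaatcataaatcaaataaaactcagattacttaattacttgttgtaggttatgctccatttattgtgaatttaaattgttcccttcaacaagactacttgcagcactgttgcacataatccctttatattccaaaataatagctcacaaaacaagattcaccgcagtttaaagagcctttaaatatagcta
atg14: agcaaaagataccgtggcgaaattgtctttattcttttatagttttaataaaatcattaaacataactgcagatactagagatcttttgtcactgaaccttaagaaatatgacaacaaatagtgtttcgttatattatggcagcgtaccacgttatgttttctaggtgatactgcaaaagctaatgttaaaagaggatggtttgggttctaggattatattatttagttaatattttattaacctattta
atg3: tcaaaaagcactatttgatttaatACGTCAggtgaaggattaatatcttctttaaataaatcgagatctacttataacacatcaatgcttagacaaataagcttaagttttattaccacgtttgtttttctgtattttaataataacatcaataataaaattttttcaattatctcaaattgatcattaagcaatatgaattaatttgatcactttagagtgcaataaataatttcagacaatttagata
Among the 28 upstream windows, 2 held TGACGT on either strand, those of atg3 and atg16, against 4.64% of 5112 windows of coding genes. Of these 2 genes atg3 rose, and atg16, whose window is not shown, was not called (log2 fold change -0.26, edgeR adjusted p = 0.122). GATAAG, the core of GATA factor sites, was in none of the 28 and in 9.10% of all windows. CCCCTC, a zinc-finger stress motif, was in the window of atg9 alone and in 1.585% of all windows. Other annotated genes cover all 250 bases of the atg9 window and 237 of the 250 bases of the atg16 window. No window of the 28 held more than 1 of these motifs. A match describes these letters only, and the absence of one says nothing of a factor.

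The Atg1 complex held the largest change. All 4 of its tested genes rose, with a median log2 fold change of 1.59. The gene atg13 (SPAC4F10.07c), which encodes the regulatory partner of the Atg1 kinase, lies on chromosome I from 4840485 to 4843723. It had 38.8, 32.2 and 37.4 CPM without thiamine and 249, 245 and 328 CPM with the label. Its lowest treated library was far above its highest control. The means of 36.1 ± 3.52 and 274 ± 46.7 CPM (SD, n = 3) gave a log2 fold change of 2.92 (SE 0.14, edgeR adjusted p = 8.09e-07), a rise that ranked 85 among the 5434 genes tested.

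The kinase gene atg1 (SPCC63.08c, chromosome III, 849833 to 852705) was the most abundant of the complex. It had 93.4, 85.8 and 86.3 CPM without thiamine and 296, 315 and 392 CPM with the thiamine label, so the groups were well apart. This was a log2 fold change of 1.92 (SE 0.12, edgeR adjusted p = 2.95e-06). The scaffold gene atg17 rose from 32.2 ± 1.65 to 77.5 ± 18.9 CPM (SD, n = 3, log2 fold change 1.27). The gene atg11, whose product is a further scaffold that activates the kinase, rose from 58.8 ± 2.70 to 75.6 ± 6.27 CPM (SD, n = 3). Its log2 fold change of 0.36 (edgeR adjusted p = 0.00465) became 0.11 after removal of length and GC trends and was then not called (edgeR adjusted p = 0.277). The remaining subunit gene, atg101, had 1, 4 and 15 counts without thiamine and 10, 10 and 4 with the label. A noncoding RNA gene on the other strand, SPNCRNA.833, spans all of atg101 and had 189, 183 and 152 counts against 422, 382 and 514. How reads in such overlaps were assigned to genes is not given in the sources used here.

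Genes for membrane supply did not move together. Of 6 tested, 2 rose, 2 fell and 2 did not pass the test, and their median was 0.08. The gene of Atg9 (SPBC15D4.07c, chromosome II, 3023343 to 3025621), the membrane protein of the seed vesicles, had 34.2, 31.4 and 31.5 CPM without thiamine and 37.3, 35.4 and 40.1 CPM with the label. These groups were close without overlapping. The log2 fold change of 0.22 (SE 0.08) passed the test (edgeR adjusted p = 0.0433), but was lost on leaving out any of 5 libraries in turn and turned to -0.08 with upper-quartile factors. Ctl1 is a membrane protein that binds Atg9, and ctl1 (SPCC1682.11c, chromosome III, 392022 to 394274) had 33.3, 32.4 and 32.1 CPM against 49.8, 50.4 and 75.7 CPM. Every treated library was above every control, and replicate 3 was well above the other two. On the log2 scale ctl1 rose by 0.85 (SE 0.16, edgeR adjusted p = 0.00126), and 0.61 without thiamine replicate 3. The gene atg2, for a lipid transfer protein that works with Atg9, was at 18.1 ± 0.65 and 17.3 ± 3.11 CPM (SD, n = 3) and not called, with a log2 fold change of -0.06. It was called lower with length and GC trends removed (-0.45, edgeR adjusted p = 0.0110) and higher with library totals (0.54, edgeR adjusted p = 0.0149).

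The Atg18-family genes, which encode WD-repeat proteins that bind phosphatidylinositol phosphates, held both of the falls in that group. The steepest was atg1803 (SPAC458.06, chromosome I, 4742809 to 4744346), at 14.4, 8.99 and 9.90 CPM without thiamine and 4.42, 4.81 and 4.82 CPM with the label. Its treated libraries agreed closely and all lay below the controls. This was a log2 fold change of -1.25 (SE 0.18, edgeR adjusted p = 3.16e-04). For atg1802 (SPAC823.16c, chromosome I, 2609181 to 2611001) the values were 36.9, 26.9 and 25.6 CPM against 20.2, 19.5 and 20.1 CPM. No control reached as low as a treated library, and control replicate 1 was the highest. Between the groups the log2 fold change was -0.58 (SE 0.14, edgeR adjusted p = 0.00472), which became -0.01 with library totals. The remaining family member, atg1801, was at 6.29 ± 1.13 and 7.97 ± 0.85 CPM (SD, n = 3) with overlapping groups and was not called. No transcribed stretch of 100 or more bases at 95% identity or above was found between any of the 28 genes and another place in the genome.

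Of the 28 genes, 3 encode subunits of the phosphatidylinositol 3-kinase complex of autophagy, and all 3 rose. For atg14 (SPAC25A8.02, chromosome I, 2102190 to 2104103), which directs the kinase to autophagy, the values were 17.0, 13.4 and 14.6 CPM without thiamine and 56.5, 57.9 and 78.1 CPM with the label. The groups were separate by a wide margin. On the log2 scale atg14 rose by 2.10 (SE 0.15, edgeR adjusted p = 4.93e-06). For atg6 (SPAC20G8.10c, chromosome I, 1418900 to 1420497), the gene of the Beclin homologue, they were 21.9, 18.9 and 17.9 CPM against 52.4, 48.0 and 67.4 CPM. Its treated libraries were again all above the controls. On the log2 scale atg6 rose by 1.52 (SE 0.14, edgeR adjusted p = 2.26e-05). The smallest rise was that of atg38, which encodes a linker within the complex, from 12.7 ± 0.59 to 16.6 ± 1.35 CPM (SD, n = 3, log2 fold change 0.39, edgeR adjusted p = 0.00698), and it was not called with upper-quartile factors (edgeR adjusted p = 0.413). An antisense RNA gene covers 73.9% of atg38 and rose by 0.47 (edgeR adjusted p = 0.018). The kinase of the complex and its regulatory subunit, which also serve other vacuolar traffic, are outside the 28. The kinase gene pik3 had a log2 fold change of -0.43 (edgeR adjusted p = 0.0033), which turned to 0.13 with library totals and was not called (edgeR adjusted p = 0.583). The gene of its regulatory subunit, vps15, had 1.11 (edgeR adjusted p = 4.33e-06), and 1.70 with library totals.

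**Figure D2:**
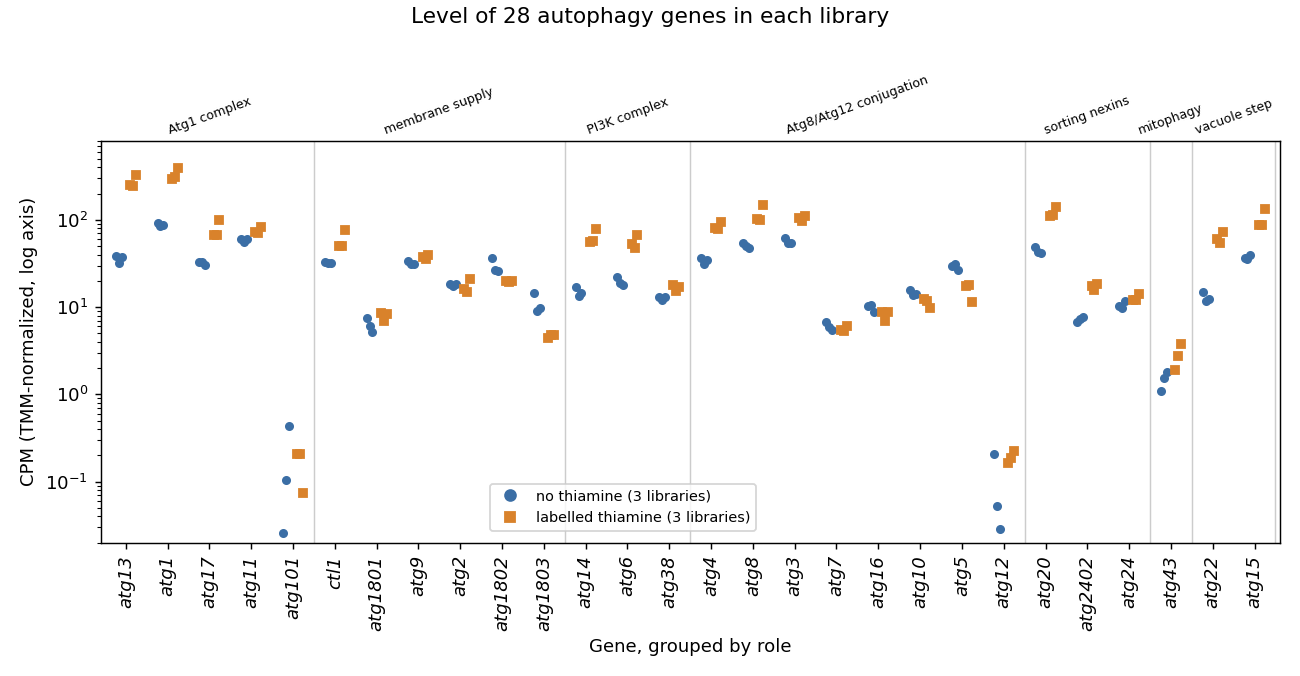
CPM of each of the 28 genes in each of the 6 libraries (log axis), grouped by role, with circles for no thiamine and squares for the libraries labelled thiamine (3 each, 1 point a library). The treated points of atg13, atg1, atg14 and atg22 lie well above their controls, those of atg5 and atg1803 lie below, and atg12 and atg101 lie under 1 CPM.

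The 2 conjugation systems were mixed. Of the 7 genes tested, 3 rose, 2 fell and 2 did not pass the test, with a median of -0.10. The ubiquitin-like protein that coats the membrane is encoded by atg8 (SPBP8B7.24c, chromosome II, 3684281 to 3685459), at 54.0, 50.8 and 47.5 CPM without thiamine and 103, 98.7 and 147 CPM with the label. Each treated library was above each control, and replicate 3 was the highest. On the log2 scale atg8 rose by 1.19 (SE 0.15, edgeR adjusted p = 1.28e-04), and 0.98 without thiamine replicate 3. The genes of 2 enzymes that act on Atg8 rose with it. The protease gene atg4 went from 34.0 ± 2.80 to 84.5 ± 8.72 CPM (SD, n = 3, log2 fold change 1.31, edgeR adjusted p = 8.01e-06). The gene atg3, for the E2-like enzyme that attaches Atg8 to lipid, went from 57.3 ± 4.09 to 105 ± 6.60 CPM (SD, n = 3, log2 fold change 0.88, edgeR adjusted p = 2.95e-05).

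No tested gene of the Atg12 branch, which builds the complex that promotes Atg8 lipidation, was called higher, and atg12 itself was not tested. For atg5 (SPBC4B4.10c, chromosome II, 3432104 to 3433533), the acceptor of Atg12, the values were 29.5, 31.1 and 26.7 CPM without thiamine and 17.5, 17.9 and 11.4 CPM with the label. The treated libraries were all below the controls, and replicate 3 was the lowest. This was a log2 fold change of -0.90 (SE 0.17, edgeR adjusted p = 0.00117), and with library totals it was -0.35 and not called (edgeR adjusted p = 0.119). The gene atg10 (SPAC227.04, chromosome I, 504835 to 505775), for the E2-like enzyme of this branch, had 15.8, 13.8 and 14.3 CPM against 12.4, 11.7 and 9.79 CPM. Its groups were near each other without overlapping. Between them the log2 fold change was -0.37 (SE 0.12, edgeR adjusted p = 0.0189), and it turned to 0.19 with library totals. The call was also lost with length and GC trends removed (-0.24, edgeR adjusted p = 0.0825) and on leaving out control replicate 1 (-0.32, edgeR adjusted p = 0.0744). The gene of Atg16, which joins the complex to the membrane, was at 9.84 ± 0.99 and 8.25 ± 1.09 CPM, and atg7, for the E1-like enzyme of both systems, at 6.004 ± 0.63 and 5.61 ± 0.38 CPM (SD, n = 3), neither being called. Both were called lower with upper-quartile factors, atg16 at -0.55 (edgeR adjusted p = 0.00546) and atg7 at -0.40 (edgeR adjusted p = 0.0222). The gene mde4 on the other strand overlaps 70.5% of atg7. The gene of Atg12 itself had 8, 2 and 1 counts without thiamine and 8, 9 and 12 with the label, with 88.5% of it overlapped by other counted genes.

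Sorting nexins bind phosphatidylinositol 3-phosphate and bend membrane. Of their 3 genes, atg20 rose from 44.2 ± 3.96 to 122 ± 15.7 CPM (SD, n = 3, log2 fold change 1.47, edgeR adjusted p = 7.25e-06), and atg2402 from 7.27 ± 0.40 to 17.2 ± 1.31 CPM (SD, n = 3, log2 fold change 1.25, edgeR adjusted p = 1.20e-05). The other gene, atg24, had groups that did not overlap, at 10.6 ± 1.06 and 12.8 ± 1.21 CPM (SD, n = 3), but was not called (edgeR adjusted p = 0.0656).

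Atg43 is the mitophagy receptor of the outer mitochondrial membrane. Its gene (SPAC14C4.01c, chromosome I, 5221803 to 5226054) was the weakest of the 26 tested, at 1.09, 1.54 and 1.82 CPM without thiamine and 1.91, 2.79 and 3.80 CPM with the label. The highest control and the lowest treated library nearly met. The log2 fold change was 0.94 (SE 0.30, edgeR adjusted p = 0.0202), on 42 to 205 counts per library. The call was lost with length and GC trends removed (edgeR adjusted p = 0.190) and with upper-quartile factors (edgeR adjusted p = 0.0798), and on leaving out control replicate 1 (log2 fold change 0.75, edgeR adjusted p = 0.0810) or 2 (0.96, edgeR adjusted p = 0.0523). Other counted genes overlap 80.1% of atg43. RefSeq names a further gene, SPAC26A3.14c, as atg44, a mitochondrial fission factor of mitophagy. The deposited table gave it no atg name, so it is not among the 28. It had 62.5, 60.9 and 59.1 CPM without thiamine and 42.1, 39.8 and 36.7 CPM with the label. It thus lay lower in every treated library, with a log2 fold change of -0.62 (SE 0.08, edgeR adjusted p = 1.45e-04), which was -0.05 and not called with library totals (edgeR adjusted p = 0.847).

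Both genes of the vacuole step rose. The gene atg22 (SPAC2G11.13, chromosome I, 836206 to 838256), whose budding yeast counterpart exports amino acids from the vacuole, had 14.9, 11.8 and 12.4 CPM without thiamine and 60.7, 54.5 and 72.6 CPM with the label. Treated libraries were far above controls. On the log2 scale atg22 rose by 2.26 (SE 0.14, edgeR adjusted p = 2.23e-06). The gene atg15 (SPAC23C4.16c, chromosome I, 1055849 to 1057578), for the lipase that opens autophagic bodies, had 36.4, 35.9 and 39.8 CPM against 88.5, 87.4 and 133 CPM. The groups were separate, and thiamine replicate 3 was the highest. On the log2 scale atg15 rose by 1.46 (SE 0.16, edgeR adjusted p = 5.90e-05).

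**Figure D3:**
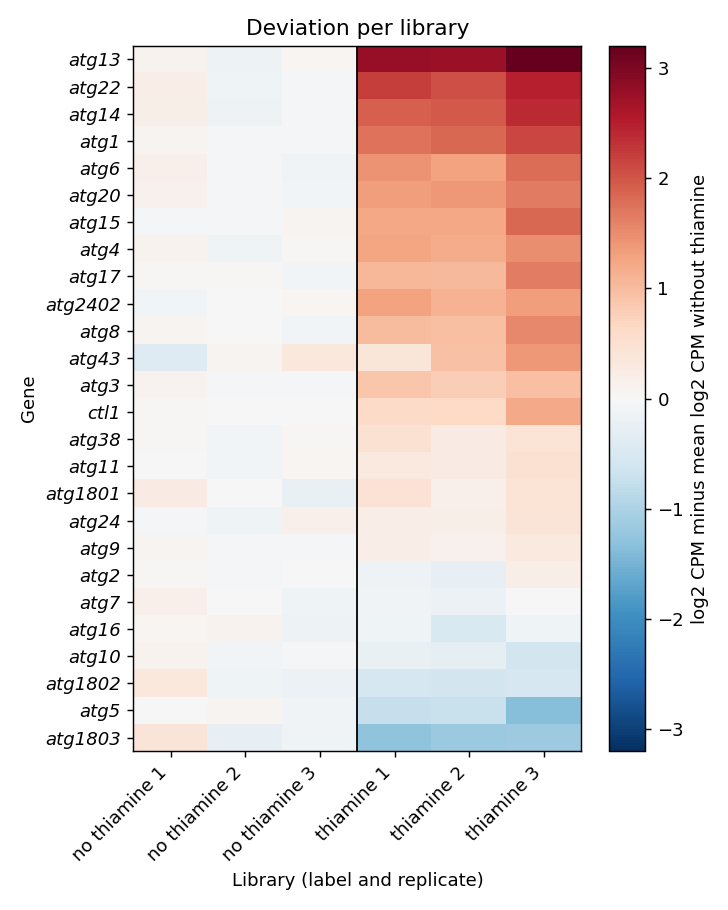
Deviation of each tested gene (rows, ordered by change) in each library (columns) from its mean log2 CPM without thiamine, in log2 units. Thiamine replicate 3 is the darkest treated column, with a median deviation of 1.09 against 0.54 and 0.70 in replicates 1 and 2.

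The libraries differed within the treated group. The median deviation from the control mean was 0.54 in thiamine replicate 1, 0.70 in replicate 2 and 1.09 in replicate 3. The CPM of the 28 genes summed to 681 to 755 in the controls and to 1554 to 2005 with the label, so that every treated sum was above every control sum. Without thiamine replicate 3, the median log2 fold change was 0.61, with 16 genes called higher and 6 lower. The part of its low ribosomal RNA share in this was not tested. With ribosomal RNA genes left out of all libraries, 16 genes were called higher and 4 lower.

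Levels were compared between genes per kilobase of transcript. Without thiamine atg8 was the highest at 54.5 CPM per kilobase, followed by atg3 at 42.7 and atg1 at 31.5, and their ranges over libraries did not overlap. The next in order, atg5 (21.8 to 25.4) and atg15 (20.7 to 23.0), could not be told apart by their ranges. The median over 4751 coding genes was 16.8 without thiamine and 18.6 with the label. In the libraries labelled thiamine atg8 was at 124 and atg1 at 119 CPM per kilobase, with overlapping ranges, and atg13 at 93.9 came at rank 3 after rank 13 of the 28. The gene atg5 moved the other way, from rank 4 at 23.7 to rank 15 at 12.7 CPM per kilobase. The lowest tested genes in both groups were atg43 and atg7, followed by atg2, which with the label (2.99 to 4.14) could not be told apart from atg1803 (3.31 to 3.61). Other counted genes overlap 80.1% of atg43 and 70.5% of atg7. How reads in overlaps were assigned is not given, and the part of this in the ranking was not tested.

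The number of exons was set beside the changes. Of the 11 genes with a single exon, 9 rose and 1 fell, with a median log2 fold change of 1.25. Among all coding genes tested with a single exon 43.1% rose and 30.5% fell. Of the 15 tested genes with introns, 8 rose and 3 fell, with a median of 0.39, where 27.9% of all coding genes with introns rose and 42.9% fell. The 6 genes with 3 or more introns were atg1801, atg1802, atg1803, atg5, atg7 and ctl1. In these 6, ctl1 alone rose, 3 fell and 2 were not called, and their median was -0.34. The median of the 658 coding genes tested with as many introns was also -0.34, and of these 19.0% rose and 52.7% fell. With library totals 2 of these 3 falls, atg1802 and atg5, were not called. Splicing was not measured, since the files hold counts per gene.

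**Figure D4:**
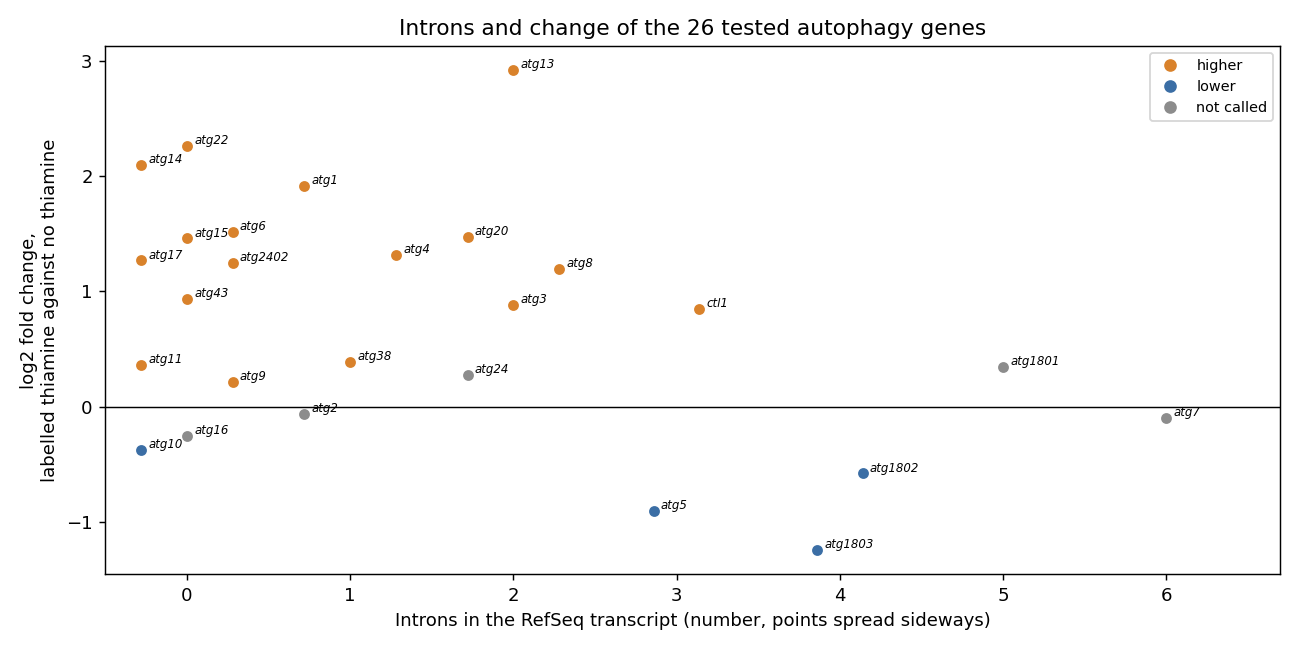
Log2 fold change (y axis, labelled thiamine against no thiamine, n = 3 libraries each) of each tested autophagy gene against the number of introns in its RefSeq transcript (x axis, points spread sideways within a number), coloured by call. Of the genes with 3 or more introns ctl1 alone was called higher, while 9 of the 11 genes without introns were.

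Further genes were taken from fixed lists and read against the 34.5% and 35.3% of all genes that rose and fell. Their counts moved with the scaling, the falls in particular. The 10 genes listed for autophagy without an atg name include cargo of the Nbr1 route, among them ape4 and ams1. The falls are therefore not all of genes that act in the pathway. Of the 10, 3 rose and 5 fell, against 4 and 1 with library totals and 3 and 6 with upper-quartile factors. Of the falls ape4 alone was called with library totals. The largest rise was that of epr1, the gene of an endoplasmic reticulum autophagy receptor, from 20.2 ± 0.62 to 47.3 ± 5.29 CPM (SD, n = 3, log2 fold change 1.23, edgeR adjusted p = 9.05e-06). The largest fall was that of ape4, for an aminopeptidase that is a cargo of the Nbr1 route, from 112 ± 6.66 to 32.0 ± 3.56 CPM (SD, n = 3, log2 fold change -1.81, edgeR adjusted p = 1.63e-06). The gene of the receptor Nbr1 had a log2 fold change of 0.81 and ams1, for its cargo alpha-mannosidase, of -1.48, the last on 17 to 54 counts per library with 95.4% of the gene overlapped by another.

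Of 12 genes of vacuolar proteases and the fusion machinery, 6 rose and 4 fell, against 8 and 0 with library totals and 3 and 5 with upper-quartile factors. The protease genes psp3 (log2 fold change 1.54, edgeR adjusted p = 2.29e-05, the largest rise), isp6 (0.92) and cpy1 (1.23) rose, and cpy1, for carboxypeptidase Y, went from 2365 ± 43.4 to 5548 ± 522 CPM (SD, n = 3). The 4 falls were in genes of the tethering complexes that dock vesicles at the vacuole, the largest being vps41 from 43.3 ± 1.94 to 24.2 ± 2.06 CPM (SD, n = 3, log2 fold change -0.84, edgeR adjusted p = 4.51e-05). With library totals none of the 4 was called by edgeR, and vps41 was at -0.28 (edgeR adjusted p = 0.237). Other tethering genes rose, namely vps11 (log2 fold change 0.53, edgeR adjusted p = 0.00123) and pep3 (0.32, edgeR adjusted p = 0.0203). Neither was called with upper-quartile factors (edgeR adjusted p = 0.0523 and 0.83). Of 10 tested genes of the ESCRT complexes, which sort membrane proteins and close autophagosomes, 7 rose and 1 fell, against 8 and 0 with library totals and 5 and 2 with upper-quartile factors. The rise of vps20 was the largest, from 24.4 ± 1.47 to 131 ± 18.5 CPM (SD, n = 3, log2 fold change 2.42, edgeR adjusted p = 7.52e-07), and vps25 fell by 0.31 (edgeR adjusted p = 0.0281), a change that turned to 0.27 with library totals and was not called (edgeR adjusted p = 0.317).

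Of 11 genes that form or control TORC1, 7 rose and 3 fell, against 8 and 1 with library totals and 3 and 4 with upper-quartile factors. The largest changes were in partners of the kinase itself. The raptor gene mip1 rose from 69.5 ± 2.38 to 136 ± 10.1 CPM (SD, n = 3, log2 fold change 0.96, edgeR adjusted p = 1.28e-05), and pop3, the gene of the Lst8 homologue, fell from 91.3 ± 0.96 to 37.8 ± 2.38 CPM (SD, n = 3, log2 fold change -1.27, edgeR adjusted p = 2.28e-06). Of 9 genes listed as markers of nitrogen starvation, 4 rose and 4 fell, against 5 and 3 with library totals and 4 and 4 with upper-quartile factors. The list holds mating genes, and whether each of the 9 responds to starvation in this h+ strain was not tested. The mating regulator gene ste11 rose by a log2 fold change of 1.66 (edgeR adjusted p = 2.61e-06), while mei2, which drives meiosis and is a target of Ste11, fell by 2.89 (edgeR adjusted p = 6.47e-07), from 50.1 ± 2.96 to 6.74 ± 1.16 CPM (SD, n = 3). Of 11 stress genes, 5 rose and 4 fell, against 6 and 1 with library totals and 2 and 5 with upper-quartile factors. The largest called changes ran from 1.53 for the metallothionein gene zym1 (edgeR adjusted p = 9.28e-06) to -1.21 for the chaperone gene hsp104 (edgeR adjusted p = 1.12e-04).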

How the data were processed

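Polyadenylated RNA was sequenced from 6 cultures with a stranded kit. The deposited table holds raw read counts per gene for each library, which the authors made with STAR alignment per the labels. The version, genome build, counting tool and use of strand are not given in the sources used here. A second table from the authors pairs gene IDs with names, positions and transcript lengths, and also holds columns of their DESeq2 comparison, which were not used. As deposited by the authors, those are a mean normalized signal (count over size factor), its natural log, log2 fold changes with standard errors, a Wald score, p-values and a -log10 p. Its positions share an end with RefSeq ASM294v3 for 99.57% of 6233 genes and for all 28 autophagy genes.

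Genes with low counts were dropped by filterByExpr and counts were scaled by TMM factors. The groups of 3 were compared with edgeR 4.0.16 (R 4.3.3), using a robust quasi-likelihood fit without covariates and its F test. The fit was tested first on simulated data. That simulation changed few genes, in both directions, so it cannot test the calls that depend on the scaling. CPM carry the TMM factors. The alternatives were relative log expression, upper-quartile and library-total scaling, DESeq2 1.42.0, no filter, each library left out, the replicate number as a block, loess removal of length and GC trends (span 0.5) with and without that block, ribosomal RNA genes left out, a strict threshold, and members overlapped over more than 50% of their length left out. Near-identical sequence was sought with blastn 2.17.0. The cultures are labelled as biological replicates. No library pair agreed within sampling noise (chi-square per degree of freedom of at least 36.4). Libraries with the same replicate number showed little correlation of their deviations (-0.028 to 0.086), and the labels state no pairing.

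Genes given per library were atg1, atg8, atg9, ctl1, atg43, atg44, atg15 and the 5 largest rises and falls among called members without overlap (only 4 fell). In each other list the largest called rise and fall were named. The genes thi2, vps15, pik3, nbr1, ams1, isp6, cpy1, vps11 and pep3 were named after their values were seen. The members and lists were chosen with earlier results of these data known. In the lists trs85, ccz1 and vps37 matched no counted gene.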

Additional observations from a re-analysis of the deposited data

How the results depend on the processing

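The median log2 fold change of the autophagy genes was 0.86. It was 1.46 with library totals, 0.56 with upper-quartile factors, 0.58 with length and GC trends removed, 0.55 with those trends removed and a replicate block, and 1.19 with members overlapped over more than 50% left out. On leaving out each library in turn it ran from 0.61 (without thiamine replicate 3) to 0.94. The 17 higher and 4 lower calls became 20 and 1 with library totals, 13 and 7 with upper-quartile factors, and 6 and 0 at p under 1e-06 with a 2-fold change. With the replicate block alone 17 were higher and 4 lower, atg24 being gained (edgeR adjusted p = 0.0467) and atg9 lost (edgeR adjusted p = 0.064). With DESeq2, relative log expression factors or no filter all 26 genes kept their direction and their side of the threshold. The labels number the replicates without stating a pairing, so the block was not read as a paired design.

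With library totals atg10 turned to 0.19, atg2 to 0.54, atg16 to 0.31 and atg7 to 0.48, and with upper-quartile factors atg24 turned to -0.026 and atg9 to -0.082. Leaving out libraries moved atg2 between -0.23 and 0.031, the latter without thiamine replicate 2. The scaling shifts all genes by construction. The other causes were not tested. The 3 libraries a group limit the precision, and the genes with at most 15 counts in any library, atg12 and atg101, had too few counts to be tested. Other counted genes overlap 88.5% of atg12 and 100% of atg101.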

Other observations

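Some neighbours that share a few bases with an autophagy gene also rose. The gene taf1, on the same strand as atg22 and overlapping it by 29 bases, had a log2 fold change of 1.89 (edgeR adjusted p = 7.01e-06). On the other strand rnf10, which overlaps atg8 by 132 bases, had 1.14 (edgeR adjusted p = 2.47e-05) and bud22, which overlaps atg13 by 30 bases, had 0.73 (edgeR adjusted p = 1.74e-04). Other neighbours did not rise with TMM scaling, such as acp2 beside atg14 at -0.45 (edgeR adjusted p = 0.00897), tim23 beside atg20 at -0.40 (edgeR adjusted p = 0.0022) and hot15 beside atg3 at -0.82 (edgeR adjusted p = 0.00334). For all these neighbours only the TMM values are given, and library totals shift all genes upward. These genes were chosen after their values were seen.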
